A study of Homo sapiens with 24 samples.

Results

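In 2 kidney carcinoma lines treated with interferon gamma (IFNγ), 124 genes moved in opposite directions, whereas the cytokine's own textbook response rose in both. With PD-L1 siRNA, 63 of its 63 measured genes rose in A498, against 19.4% of all genes, and 62 of 63 in 786-O, against 10.9%. For 43 of the 63 the rise was smaller in 786-O by a test of the difference, and for 3 it was larger. These 124 genes, of 39321 in the count table and of 12534 that reached a mean CPM (count scaled to the library total) of 1 in the control siRNA libraries of both lines, are described here. The shares of all genes are over the 12534. The textbook list had 74 genes, and 63 met this minimum, which is a mean over libraries with and without IFNγ. A gene near 0 without IFNγ could thus be measured only through its rise, so those counts are a description. The 124 genes were selected on the ratio r, the log2 of the mean CPM with IFNγ over the mean CPM without it in control siRNA cells, each with 0.5 CPM added. A gene was taken where r was at least 0.5 in one line and at most -0.5 in the other. The rule gave 62 genes higher with IFNγ in A498 and lower in 786-O, and 62 genes with the reverse pattern, against 641 genes past the same limits upwards in both lines and 728 downwards in both.

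A498 and 786-O are established lines of clear cell renal cell carcinoma. Both were cultured in high-glucose medium, transfected with 20 nM siRNA and, after 24 hours, given 50 ng/mL IFNγ or no IFNγ for another 24 hours. The 4 groups per line were a non-targeting siRNA pool (Cnsi), the same with IFNγ (Cnsi IFNγ), an siRNA pool against PD-L1 (PD-L1si), and PD-L1 siRNA with IFNγ (PD-L1si IFNγ), with 3 poly(A) RNA libraries each and 24 libraries in all. The labels write PD-L1 knockout as genotype where the treatment text describes a transient siRNA. Nothing in the labels says that the 3 libraries of a group came from separate cultures, so a p-value measures only the spread between these libraries, which may be technical.

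Total counts were 19256316 to 27907526 in A498 and 26807875 to 30350461 in 786-O. In a check for mixed-up samples, 24 of 24 libraries did not match the line named in their label, so A498 and 786-O stand here for the libraries so labelled, and exchanging the labels would exchange the 2 classes of genes. Each line was run on a different sequencer, so that line and instrument cannot be told apart in any level compared between lines. The kidney factor PAX8 was present in every library (84.8 to 203 CPM in A498 and 214 to 246 CPM in 786-O). Of the other carcinoma markers examined, EPAS1, VIM, CDH6, KRT8, KRT18 and ANGPTL4 were at 6.085 CPM or more in every library. CA9 was low in A498, at 0.662 to 2.43 CPM, and at 7.23 to 31.8 CPM in 786-O. NDUFA4L2 was at 0.740 to 3.76 CPM in A498 and at most 0.350 CPM in 786-O. The leukocyte marker NKG7 and the endothelial marker PECAM1 reached 1.08 and 1.12 CPM in 786-O. The other leukocyte and endothelial markers examined were at most 0.609 CPM in any library. NNMT, a usual marker of this carcinoma, was listed at 0 in every 786-O library. NNMT was one of 1649 genes with at least 1 CPM in A498 that were listed at 0 in all 786-O libraries, and 87 genes were the other way round, and none of these could be selected. In Cnsi cells CALR was at 1638 CPM and ABI2 at 107 CPM in A498, and both were listed at 0 in 786-O. Whether such zeros, that of NNMT included, reflect expression was not tested. In 786-O Cnsi IFNγ, the first library lay apart from the other two for several of the genes described here. Without it the rule gave 128 genes, of which 115 were among the 124. Omitting another 786-O Cnsi or Cnsi IFNγ library kept from 109 (Cnsi replicate 2) to 117 (Cnsi replicate 1) of the 124.

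The siRNA target CD274, the gene of PD-L1, was measured at 4.03, 5.54 and 5.84 CPM in A498 Cnsi and at 0.889, 1.09 and 1.01 CPM in PD-L1si. With IFNγ it was at 174, 184 and 176 CPM in Cnsi and at 26.5, 28.0 and 27.4 CPM in PD-L1si. In 786-O it was at 4.00, 4.36 and 4.37 CPM in Cnsi, 1.52, 1.28 and 2.03 CPM in PD-L1si, 53.7, 56.0 and 62.2 CPM in Cnsi IFNγ and 31.6, 29.5 and 29.2 CPM in PD-L1si IFNγ. CD274 was lower with PD-L1si in both lines, but less so in 786-O. The log2 change under IFNγ was -2.81 in A498 and -0.94 in 786-O. CD274 rose with IFNγ in every arm, and in both lines PD-L1si IFNγ stayed above Cnsi without IFNγ.

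IFNγ binds a receptor that activates the kinases JAK1 and JAK2, which leads to the induction of antigen presentation, chemokine and antiviral genes through DNA elements called GAS and, by way of IRF1, ISRE. In clear cell renal carcinoma, loss of VHL leaves the hypoxia-inducible factors active, and HIF-2α, the product of EPAS1, is known as a driver of the tumour. Of the 18 gene lists examined, the list of the IFNγ response, the TNF and NF-κB list, and the lists of the cell cycle, the ATF4 response, NRF2, Wnt, Notch and Hippo signalling and kidney lineage held none of the 124 genes. These lists had from 13 (kidney lineage) to 63 (IFNγ response) measured genes, and only 124 of all 12534 genes were selected. An empty list is therefore not read as a result. The hypoxia list, with 35 measured genes, held 4 of the 124, EPAS1, ANGPTL4, MXI1 and PLIN2, all higher in A498 and lower in 786-O.

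**Figure D1:**
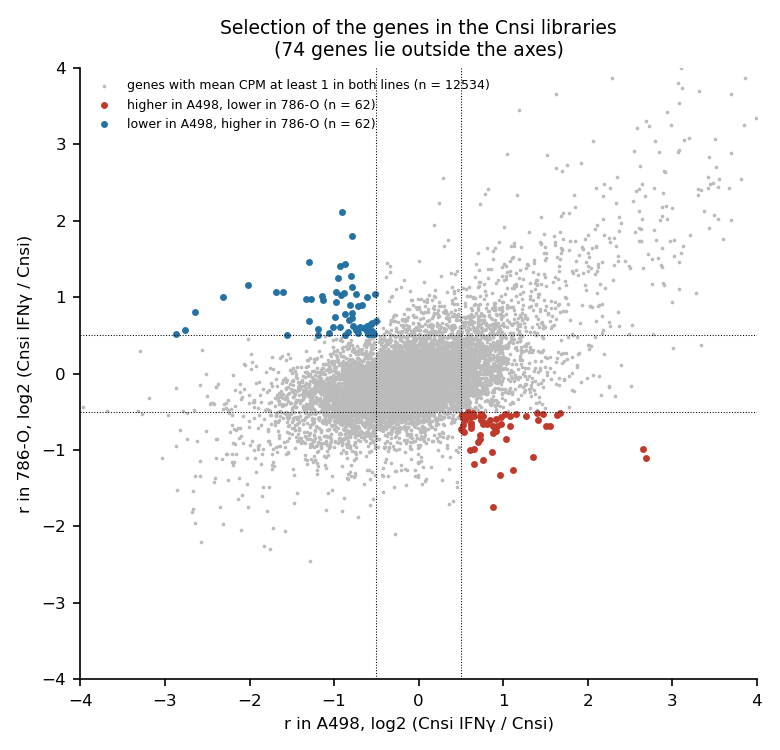
Each point is a gene with a mean of at least 1 CPM in the Cnsi libraries of both lines, at its r in A498 (horizontal, log2) and in 786-O (vertical, log2), with the limits of 0.5 dotted and 74 genes beyond the axes. The 62 red and 62 blue genes are those selected, and they sit in the 2 corners where the lines disagree.

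Because the Cnsi libraries chose the genes, their r values are given without a test, and the 12 PD-L1si libraries, which the rule did not use, served as the independent measurement. There, 122 of the 124 genes had fitted changes of the selected sign in both lines. The share of all genes with opposite signs was not counted, so the 122 are given as a description. Of the 62 genes selected as higher in A498, 56 rose in A498 PD-L1si cells (adjusted p-value under 0.05 and log2 fold change over 0.5 in edgeR's quasi-likelihood test), against 19.4% of the 12534 genes, and 27 fell in 786-O, against 6.61%. Of the 62 selected as lower in A498, 33 fell in A498, against 15.6%, and 55 rose in 786-O, against 10.9%. No gene was called against its selected direction in either line. The median log2 change was -0.48 in 786-O for the first class and -0.55 in A498 for the second, beside 1.00 and 0.87 on the rising sides. On CPM without TMM, the scaling between libraries used in the fit but not in the rule, the 4 medians were -0.61, -0.65, 0.83 and 0.71, so the gap between falling and rising sides depends on the scaling. Over the 12534 genes the fitted medians were 0.02 in both lines.

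Both changes were called, in the selected directions, for 57 genes. These were 26 of the 62 that rose in A498 and fell in 786-O, a pattern called in 0.487% of all 12534 genes, and 31 of the 62 with the reverse pattern, called in 0.415%. A further 32 genes were called in A498 alone, 25 in 786-O alone and 10 in neither. The difference between the lines was tested directly as the IFNγ change in 786-O minus that in A498. It was negative and called for 61 of the 62 genes of the first class, against 15.7% of all genes, and positive and called for 57 of the 62 of the second, against 14.3%. The 3 IFNγ libraries did not overlap the 3 untreated ones for 117 of the 124 genes in A498 PD-L1si cells, against 75% of the 12534, and for 114 in 786-O, against 63.9%. TMM scaling moved the median log2 change by 0.14 in both lines in these libraries, so that on CPM without TMM 120 of the 124 genes, rather than 122, had both signs as selected. The limits of the rule, applied to the PD-L1si libraries, were passed by 120 genes in opposite directions, of which 70 were among the 124, 38 of the first class and 32 of the second.

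**Figure D2:**
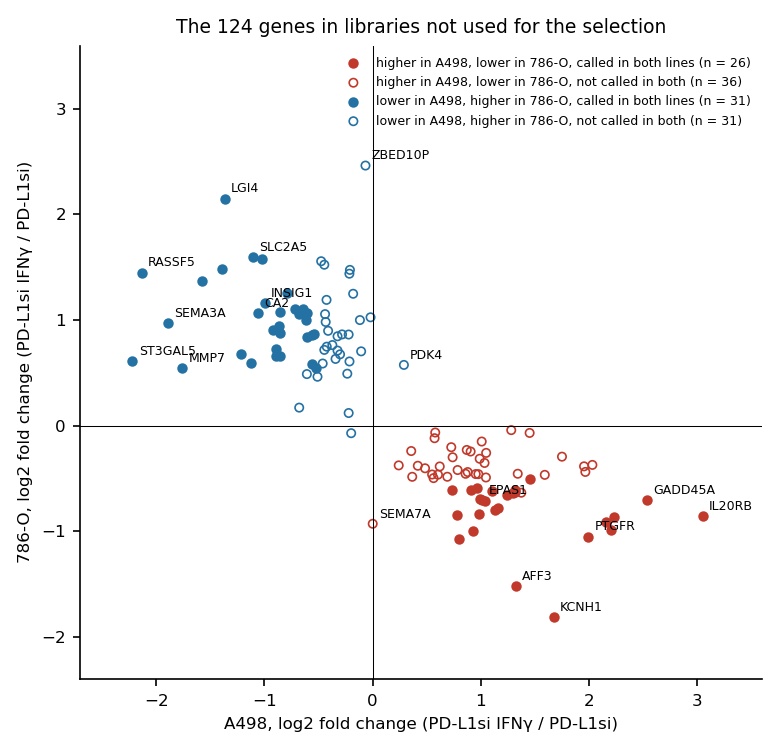
Each of the 124 genes is placed by its log2 fold change with IFNγ in PD-L1si cells, with A498 on the horizontal and 786-O on the vertical axis, and filled points mark the 57 genes called in both lines. Red points, selected as higher in A498, fill the lower right corner and blue points the upper left, with SEMA7A and PDK4 at or across the vertical line at 0.

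The hypoxia-inducible factor gene EPAS1 (chromosome 2, 46293667 to 46386697, plus strand, GRCh38) belonged to the first class and is, as background, the HIF gene most tied to this carcinoma. In A498 it was at 399, 402 and 420.1 CPM in Cnsi and 755, 715 and 757 CPM in Cnsi IFNγ. In 786-O it was at 185, 176 and 193 CPM in Cnsi and 83.2, 94.9 and 92.7 CPM in Cnsi IFNγ. These are the values that selected it. In the PD-L1si libraries it went from 377, 393 and 355 CPM to 700.4, 661 and 694 CPM in A498, a log2 change of 1.01 ± 0.05 with an adjusted p of 2.22e-14 (edgeR). In 786-O it went from 206, 216 and 215 CPM to 112, 124 and 118 CPM, a log2 change of -0.71 ± 0.04 with an adjusted p of 4.61e-13 (edgeR).

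ANGPTL4, a secreted inhibitor of lipoprotein lipase, stood at 12.4, 15.4 and 13.7 CPM in A498 PD-L1si and at 51.0, 53.6 and 48.7 CPM with IFNγ (2.03 ± 0.07, adjusted p 3.23e-16 in edgeR). In 786-O it stood far higher at 174, 168 and 175 CPM and was at 121, 120.4 and 122 CPM with IFNγ, a change of -0.37 ± 0.04 that did not reach the fold limit, although in Cnsi cells it had gone from 103, 104 and 106 to 38.5, 54.1 and 52.9 CPM. MXI1, which antagonises MYC by binding its partner MAX, rose in A498 PD-L1si cells by 1.46 ± 0.05 and fell in 786-O, from 22.0, 25.2 and 23.8 to 14.0, 16.0 and 15.4 CPM (-0.50 ± 0.07, adjusted p 2.17e-06 in edgeR). The fall of MXI1 lay at the limit of 0.5 and was no longer called without 786-O PD-L1si replicate 2 (-0.46) or without PD-L1si IFNγ replicate 1 (-0.44), nor with no filter on counts (-0.4995). PLIN2, a coat protein of lipid droplets, rose in A498 from 374, 388 and 387 to 930.3, 955 and 959 CPM, a change of 1.45 ± 0.04, and in 786-O was at 920.1, 1009.7 and 957 CPM without and 836, 835 and 829 CPM with IFNγ (-0.07 ± 0.04, adjusted p 0.192). The glucose transporter SLC2A3 rose by 1.75 ± 0.06 in A498, and its change of -0.29 ± 0.05 in 786-O had the selected sign but not the size of a call.

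The hypoxia list as a whole, of which 35 genes reached 1 CPM in both lines, also differed between the lines in the PD-L1si libraries. The 4 selected genes, EPAS1, ANGPTL4, MXI1 and PLIN2, are part of the counts that follow, and the list was not counted without them. All 4 rose in A498 and had a negative called difference, and EPAS1 and MXI1 fell in 786-O. In A498, 13 of the 35 rose, against 19.4% of all genes, and 4 fell, against 15.6%, with a median log2 change of 0.39. In 786-O, 2 rose, against 10.9%, and 11 fell, against 6.61%, with a median of -0.23, beside 0.02 for all genes in either line. The difference between lines was negative and called for 17 genes, against 15.7%, and positive and called for 3, against 14.3%. Such differences were not confined to this list. On the ATF4 list 21 of 29 genes had a negative called difference and 0 a positive one. On the AP-1 and MAPK list these were 16 and 1 of 30, and on the cell cycle list 5 and 21 of 49. On CPM without TMM scaling, 11 genes were above and 5 below the limit of 0.5 in A498, and 2 above and 14 below in 786-O. Outside the selection, and named after its values were seen, the collagen crosslinker LOX rose in A498 by 0.57 ± 0.07 (SE) and fell in 786-O by 1.06 on the log2 scale (SE 0.07). Other genes moved one way only, such as the hexokinases HK1 and HK2, which rose in both lines, and CA12, which fell in both. The glucose enzymes PGK1, GPI and ALDOC, also on the list, had the reverse difference, higher in 786-O relative to A498.

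**Figure D3:**
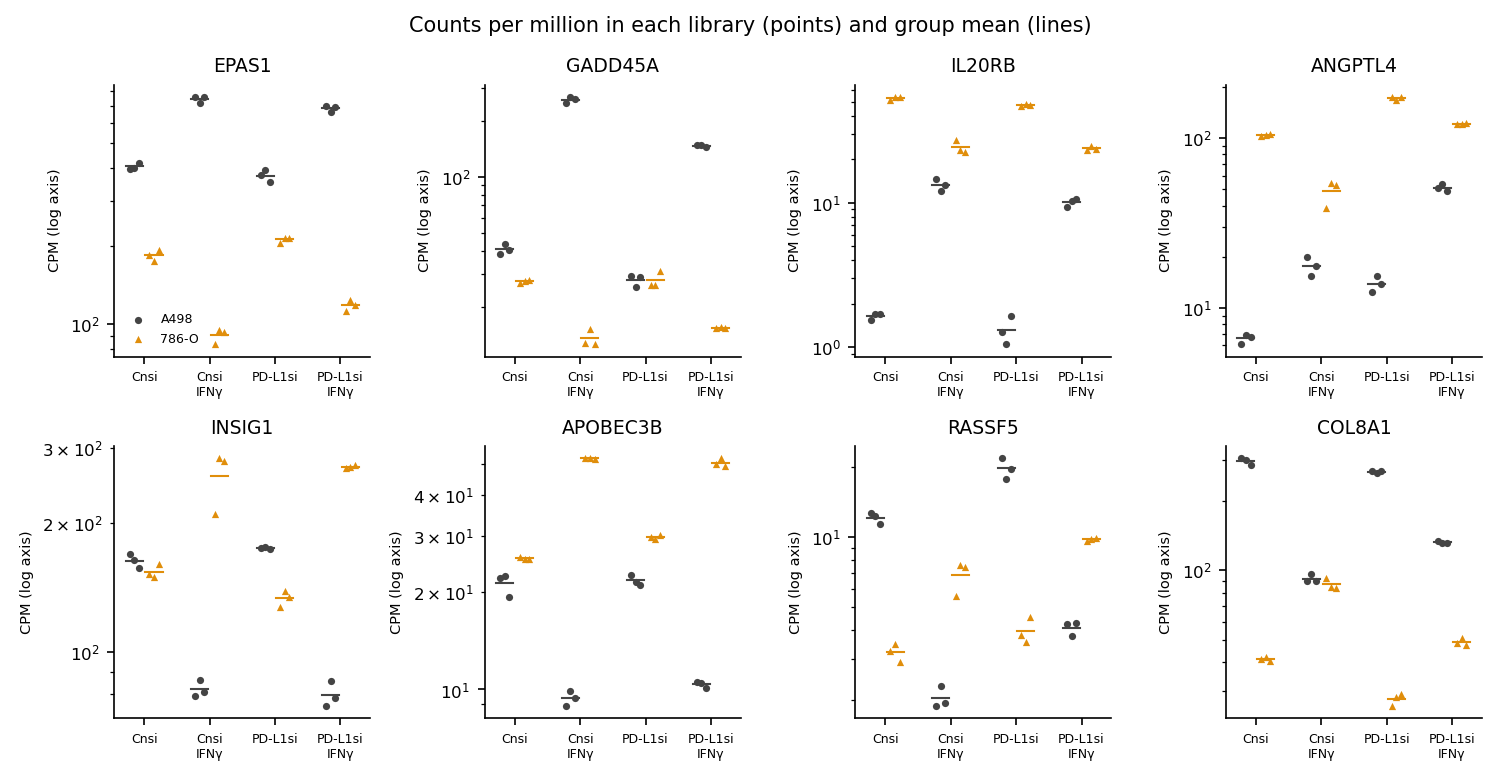
CPM on a log axis in each of the 24 libraries for 8 of the genes, with A498 as grey circles, 786-O as orange triangles and short lines at the group means. In the upper panels A498 goes up and 786-O goes down with IFNγ, in the lower panels the reverse, and for COL8A1 the lines begin far apart and meet near 90 CPM in Cnsi IFNγ.

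Of the first class, 1 gene was on the p53 list, 1 on the AP-1 and MAPK list and 1 on the epithelial and mesenchymal list. GADD45A is induced by DNA damage and growth arrest. In Cnsi cells without IFNγ it was lower in 786-O than in A498, with a log2 difference of -0.57. In PD-L1si cells without IFNγ it had nearly the same level in both lines, at 29.4, 25.4 and 28.8 CPM in A498 and 26.2, 26.1 and 31.0 CPM in 786-O. In PD-L1si cells with IFNγ it was at 148, 147 and 144 CPM in A498 and at 15.3, 15.6 and 15.5 CPM in 786-O. The log2 changes were 2.54 ± 0.06 and -0.71 ± 0.07, with adjusted p of 3.58e-20 and 4.63e-09 in edgeR. EGR1, an immediate early zinc finger factor, rose in A498 (1.38 ± 0.08). In 786-O PD-L1si cells EGR1 was at 5.05, 6.35 and 5.60 CPM without and 1.37, 4.61 and 3.82 CPM with IFNγ, and the change of -0.63 ± 0.42 was not called (adjusted p 0.316, edgeR), while without robust estimation the same value was called with an adjusted p of 0.0378. SNAI2, a repressor of epithelial genes, rose in A498 by 2.21 ± 0.07 and fell in 786-O by 0.99 (SE 0.27), where it was low, at 1.12, 1.11 and 1.05 CPM before and 0.481, 0.626 and 0.379 CPM after IFNγ. Of the wider lists, 20 of 30 measured AP-1 and MAPK genes rose in A498, against 19.4% of all genes, and 12 in 786-O, against 10.9%, with none that fell in either line. Of 22 p53 targets, 9 rose and 2 fell in A498, against 19.4% and 15.6% of all genes. In 786-O 1 rose and 2 fell, against 10.9% and 6.61%.

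Cell surface receptors and secreted ligands were found in both classes. IL20RB, a subunit of the receptors for interleukins of the IL-20 family, had the largest rise in A498, from 1.27, 1.04 and 1.64 CPM to 9.28, 10.2 and 10.6 CPM (3.05 ± 0.14, adjusted p 2.84e-14 in edgeR). In 786-O IL20RB started at 46.3, 48.2 and 47.7 CPM and fell to 23.1, 24.6 and 23.5 CPM (-0.86 ± 0.05, adjusted p 4.58e-13). The 2 lines thus approached each other from opposite sides. PTGFR, the receptor for prostaglandin F, rose by 2.00 ± 0.13 in A498, and in 786-O it went from 1.23, 1.14 and 1.68 CPM to 0.481, 0.692 and 0.585 CPM (-1.05 ± 0.26, adjusted p 0.00156). The scavenging chemokine receptor ACKR3, in the first class but below its leading 12 genes and named here after its values were seen, rose by 2.23 ± 0.08 and fell by 0.86 (SE 0.09). The EGFR ligand AREG rose in A498 (1.28 ± 0.16) and had -0.04 ± 0.24 in 786-O, with an adjusted p of 0.904.

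Of the second class, the ephrin receptor kinase EPHA4 fell in A498 from 40.4, 38.2 and 38.2 CPM to 19.2, 16.9 and 20.7 CPM (-0.89 ± 0.07) and rose in 786-O from 9.02, 8.95 and 9.48 CPM to 14.0, 13.0 and 14.3 CPM (0.73 ± 0.08). EGF, another EGFR ligand, rose in 786-O (0.86 ± 0.10), and its value in A498 was -0.22 ± 0.19, not called. The rule had placed AREG and EGF in different classes, but neither was called in both lines in the PD-L1si libraries. The axon guidance list gave 1 gene to each class. SEMA3A, a secreted semaphorin, fell in A498 from 63.4, 61.4 and 62.8 CPM to 14.3, 14.9 and 16.6 CPM (-1.89 ± 0.06, adjusted p 8.1e-17) and rose in 786-O from 1.48, 1.56 and 1.96 CPM to 3.44, 2.90 and 2.58 CPM (0.97 ± 0.17, adjusted p 3.33e-05). SEMA7A, a membrane-anchored semaphorin selected as higher in A498, had 9.03, 8.55 and 8.79 CPM in Cnsi and 18.1, 14.7 and 16.9 CPM in Cnsi IFNγ there, but 7.73, 8.36 and 8.37 CPM in PD-L1si and 7.31, 6.80 and 8.00 CPM in PD-L1si IFNγ. Its PD-L1si change in A498 was 0.00 ± 0.10 with an adjusted p of 0.991, so the rise was not seen in the second set of libraries, while its fall in 786-O was (-0.93 ± 0.10).

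The TGFβ and matrix list, with 47 genes measured, gave COL8A1 and MMP7 to the second class and none to the first. COL8A1, a short-chain collagen, fell in A498 from 269, 262 and 268 CPM to 134, 132 and 131 CPM (-0.87 ± 0.04) and rose in 786-O from 25.9, 28.5 and 29.3 CPM to 48.4, 50.9 and 47.4 CPM (0.95 ± 0.05). EDIL3, a matrix protein that binds integrins, fell by 0.61 (SE 0.05) in A498, where it was abundant at 159, 167 and 162 CPM, and rose by 1.07 ± 0.17 in 786-O, where it was at 1.41, 1.70 and 1.47 CPM. MMP7, a secreted protease of the matrix, fell in A498 by 1.76 (SE 0.06) and rose in 786-O from 264, 295 and 274 CPM to 369, 360.2 and 376 CPM. That rise, 0.55 ± 0.04, was at 0.50 and not called without 786-O PD-L1si replicate 1. The smooth muscle actin ACTA2, the one gene of the list of other cell types that was measured in both lines, belonged to the first class, with 1.29 ± 0.06 in A498 and -0.64 ± 0.07 in 786-O. The fibroblast markers DCN and PDGFRB stayed below 1.4 CPM in every library, and LUM ranged from 0.728 to 10.4 CPM in A498. Their part in the ACTA2 values was not tested.

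INSIG1, which holds the SREBP factors of cholesterol synthesis in the endoplasmic reticulum, began at 175, 176 and 174 CPM in A498 PD-L1si and 127, 139 and 135 CPM in 786-O. With IFNγ it was at 74.9, 85.5 and 78.3 CPM in A498 and 269.8, 271 and 273 CPM in 786-O. The log2 changes were -0.99 ± 0.05 and 1.16 ± 0.04, with adjusted p of 2.56e-13 and 2.42e-18 in edgeR. INSIG1 was the only gene of the 30 measured on the cholesterol and fatty acid list to be selected. In A498 PD-L1si cells 22 of the 30 fell, against 15.6% of all genes, and 1, the sterol exporter ABCA1, rose, with a median of -0.98, whereas in 786-O none fell, 2 rose (INSIG1 and the sterol carrier STARD4) and the median was 0.01. The difference between lines was positive and called for 23 of the 30, against 14.3%. The desaturase FADS2 (-1.88 in A498 and 0.09 in 786-O) and the synthase FASN (-1.68 and 0.22) illustrate genes that fell in one line and had small values in the other, and these remained outside the selection.

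**Figure D4:**
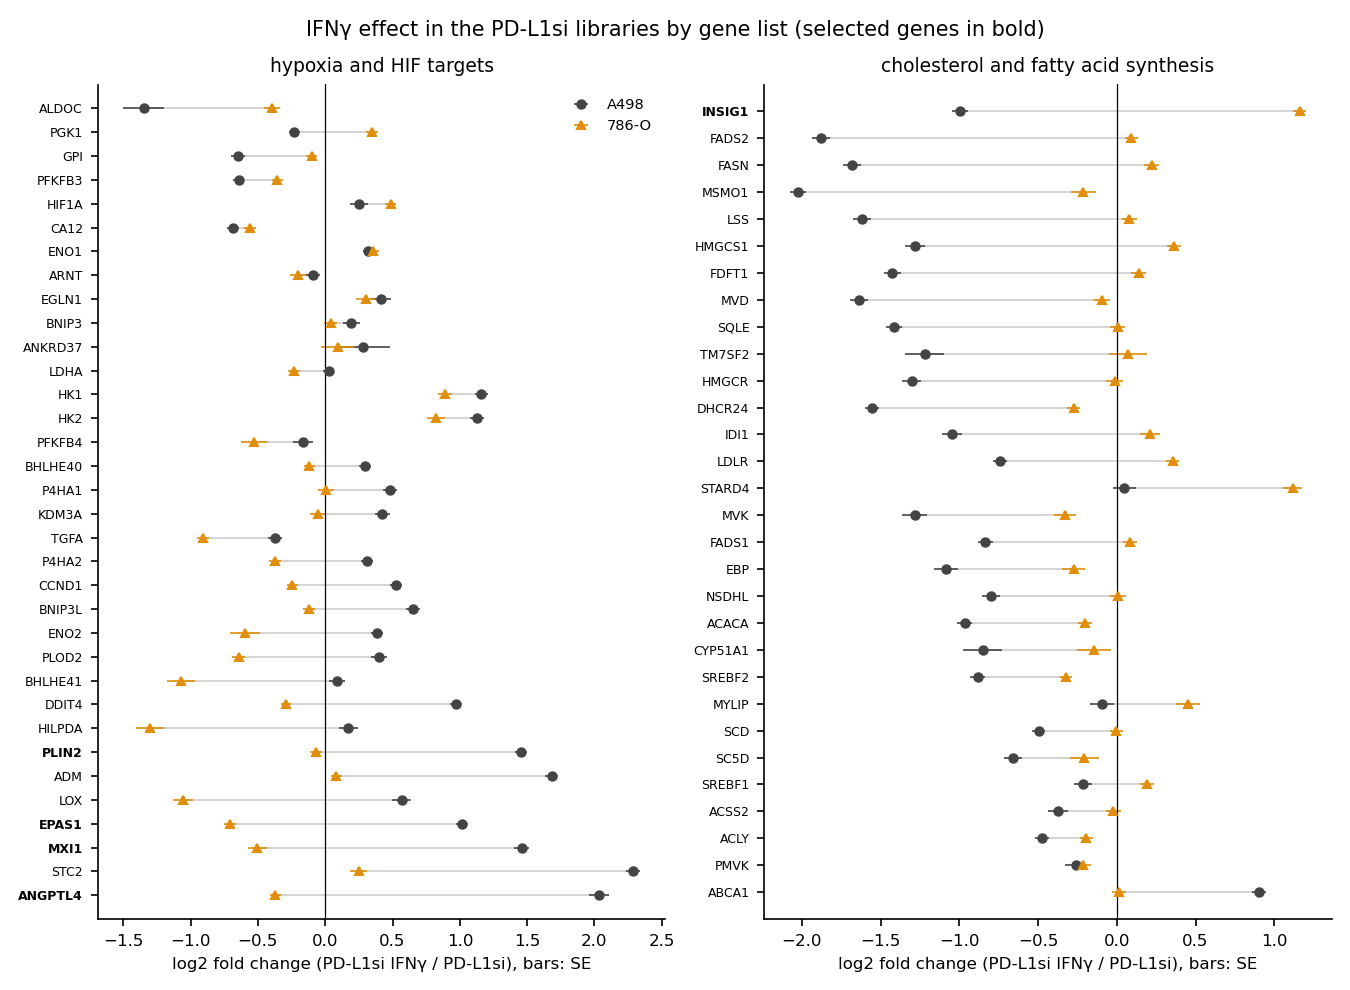
Log2 fold change with IFNγ in the PD-L1si libraries for 34 of the 35 hypoxia and the 30 cholesterol and fatty acid genes measured in both lines, with A498 as grey circles, 786-O as orange triangles and SE as bars, ordered by the difference between lines. The 786-O values lie to the left of the A498 values for most hypoxia genes and to the right for most lipid synthesis genes. Selected genes are in bold.

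Carbonic anhydrase CA2 fell in A498 from 209.5, 209.6 and 212 CPM to 91.3, 89.1 and 94.1 CPM and rose in 786-O from 369, 431 and 382 CPM to 749, 714 and 788 CPM, changes of nearly equal size (-1.06 ± 0.05 and 1.07 ± 0.05). The carotenoid-cleaving enzyme BCO1 rose in 786-O (1.48 ± 0.09), and its A498 value of -0.21 ± 0.09 was not called. PDK4, a kinase that blocks pyruvate dehydrogenase, was selected as lower in A498 but had 0.29 ± 0.16 there in the PD-L1si libraries (adjusted p 0.126, edgeR). PDK4 rose by 0.58 ± 0.11 in 786-O, a call that was lost without 786-O PD-L1si replicate 3 (0.49). Hepatic lipase LIPC, of the first class, rose by 0.74 ± 0.12 and fell by 0.61 (SE 0.07).

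Among signalling and nucleic acid enzymes of the second class, the RAS-binding protein RASSF5 had the largest difference between lines of that class, 3.57 ± 0.15. It fell in A498 from 21.9, 17.8 and 19.6 CPM to 4.21, 3.74 and 4.26 CPM (-2.13 ± 0.10) and rose in 786-O from 3.79, 3.54 and 4.55 CPM to 9.66, 9.85 and 9.95 CPM (1.45 ± 0.10). The DNA cytidine deaminase APOBEC3B went from 22.7, 21.6 and 21.1 CPM to 10.6, 10.5 and 10.1 CPM in A498 and from 29.7, 29.2 and 30.1 CPM to 50.1, 52.0 and 49.1 CPM in 786-O, so that lines alike without IFNγ stood apart with it. APOBEC3B has near-identical relatives, and the counting could divide reads among them. PTPN6, a phosphatase that dampens cytokine receptor and JAK signalling, was the one selected gene of 23 measured on the receptor and JAK-STAT list. It rose in 786-O (0.72 ± 0.05), and its A498 value was -0.45 ± 0.09, below the fold limit. The transcription factor AFF3 rose by 1.32 ± 0.05 in A498 and fell in 786-O from 5.77, 5.90 and 6.37 CPM to 2.22, 1.85 and 1.65 CPM (-1.52 ± 0.13). The neural proteins LGI4 and SLITRK4, of the second class, had -1.36 ± 0.19 and -0.86 ± 0.09 in A498 and 2.15 ± 0.18 and 1.07 ± 0.07 in 786-O, and the kinesin linker SYBU and ICA1L, of the first, had 1.11 ± 0.13 and 0.80 ± 0.13 in A498 and -0.62 ± 0.06 and -1.07 ± 0.16 in 786-O. All of these values passed the limits for a call.

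At the ends of the ranges, the strongest fall in A498 was that of ST3GAL5, the synthase of the ganglioside GM3, at -2.22 ± 0.08, and the strongest rise in 786-O that of the pseudogene ZBED10P at 2.46 ± 0.05, with -0.07 ± 0.05 in A498. The potassium channel gene KCNH1 had the strongest fall in 786-O, -1.81 ± 0.32, beside a rise of 1.67 ± 0.21 in A498, at levels of 0.773, 0.818 and 0.701 CPM and 0.758, 1.42 and 1.61 CPM before IFNγ. Just inside the limits of the rule lay UBB, a ubiquitin gene (r -0.50 in A498 and 0.68 in 786-O), and the 2-oxoglutarate dehydrogenase relative OGDHL (-0.87 and 0.50). Just outside lay ENSG00000273261, with 0.50 and -0.4997, and the kinase gene TSSK6, with 0.71 and -0.4967. In PD-L1si cells UBB rose in 786-O (0.85 ± 0.05) and had -0.32 ± 0.05 in A498, and OGDHL likewise rose in 786-O (0.61 ± 0.13) with -0.21 ± 0.10 in A498. ALOX5AP, METRNL, PRKAB2, PDLIM2 and RNASEH1-DT of the first class and TSPAN2, FAM3C2P, BCL2L15, TICAM2-AS1 and ENSG00000272482 of the second were the 10 genes called in neither line.

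Before IFNγ, each class held genes higher in A498 and genes higher in 786-O. In PD-L1si cells 34 of the 62 genes of the first class, and 27 of the 62 of the second, were higher in 786-O, beside 7188 of the 12534. The median absolute log2 difference between the lines was 0.934 without and 1.43 with IFNγ for the 124 genes, beside 0.470 and 0.583 for the 12534. For 43 of the 124 (34.7%) the lines were closer with IFNγ, against 39.1% of the 12534. IL20RB and COL8A1 were of this kind, while for GADD45A, INSIG1 and APOBEC3B the lines began near each other in PD-L1si cells and ended apart. In Cnsi cells GADD45A began further apart, at -0.57 on the log2 scale.

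By type, 101 of the 124 genes were protein-coding (81.5%, against 79.1% of the 12534) and 20 were long noncoding RNAs (16.1%, against 15.5%). Neighbours within 100000 bases formed 11 groups, each of 1 class only. One of 4 genes lay on chromosome 7 (150243916 to 150343346), with ACTR3C, ZBED10P, ENSG00000261305 and RARRES2, all of the second class. In 786-O PD-L1si cells ACTR3C rose by 1.44 ± 0.07, ENSG00000261305 by 1.49 ± 0.13 and RARRES2, the gene of the chemoattractant chemerin, by 0.71 ± 0.11. In A498 ENSG00000261305 fell by 1.39 (SE 0.23), and ACTR3C and RARRES2 had -0.21 ± 0.06 and -0.32 ± 0.05. ACTR3C, ZBED10P and ENSG00000261305 each share exon bases with LRRC61, which was not selected, with r 0.19 in A498 and 1.94 in 786-O. The part of LRRC61 reads in their values was not tested. Of the other groups, 9 paired a gene with a transcript on the opposite strand, namely ACTA2 with ACTA2-AS1, APOBEC3B with APOBEC3B-AS1, UBB with ENSG00000265401, and BCO1, PKD1, CDC42BPA, C16orf74, SPIRE1 and WFS1 with unnamed transcripts, of which ENSG00000280182 is that of BCO1. Long noncoding RNAs lying wholly within exons of an opposite coding gene had a median of 1.68 times the reads per base of that gene in A498 (243 pairs) and 1.72 times in 786-O (208 pairs), so that reads of a gene and its antisense partner cannot be told apart here. The counts given above include both partners. Opposite-strand partners outside the 124 genes are not among these pairs. For example, ENSG00000267458 lies wholly in exons of CALR, which had r -1.62 in A498 and 0 CPM in 786-O Cnsi. ACTA2 shares 387 exon bases with FAS, which had r 1.20 in A498 and 0.18 in 786-O. The part of such partners in the values was not tested. On the chromosome 7 stretch ACTR3C and ZBED10P also overlap on opposite strands, and with each of these 10 pairs counted once, 114 genes remained, 57 in each class, of which 24 and 29 were called in both lines. ENSG00000227706, a long noncoding RNA with no member as partner, had -1.58 ± 0.36 in A498 and 1.37 ± 0.31 in 786-O at levels near 1 CPM or less.

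The sequence before the start site was examined because GAS and ISRE elements are the known entry points of IFNγ. RefSeq promoters (GRCh38.p14, 250 bases before to 50 after the start) were matched by symbol for 84 of the 124 genes. That is fewer than 80% of them, so a comparison of motif shares is void, and the shares are given only as a description. The GAS letters TTCNNNGAA, the same on both strands, were found in 10 of the 84, in 6.09% of the 8802 promoters of genes that met the CPM minimum and in 7.88% of the 27305 promoters of the table. The ISRE letters TTTCNNTTTC or GAAANNGAAA were found in 2 of the 84, in 2.82% of those of genes that met the minimum and in 3.65% of all promoters. The 2 highest ranked genes of each class with either match are shown in lower case, 5′ to 3′ on the strand of the gene, with the match in capitals. EGR1 and ACTA2 are of the first class and EPHA4 and EPHA5 of the second. They lie at chr5:138465229-138465528 (plus), chr10:88991288-88991587 (minus), chr2:221574153-221574452 (minus) and chr4:65670440-65670739 (minus). The capitals mark GAS in EGR1 and EPHA5 and ISRE in ACTA2 and EPHA4.
EGR1: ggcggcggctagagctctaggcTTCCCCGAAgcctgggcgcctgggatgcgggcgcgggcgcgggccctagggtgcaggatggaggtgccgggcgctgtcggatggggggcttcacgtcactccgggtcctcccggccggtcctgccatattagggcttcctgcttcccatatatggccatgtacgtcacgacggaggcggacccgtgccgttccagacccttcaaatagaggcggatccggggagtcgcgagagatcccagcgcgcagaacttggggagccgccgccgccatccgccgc
ACTA2: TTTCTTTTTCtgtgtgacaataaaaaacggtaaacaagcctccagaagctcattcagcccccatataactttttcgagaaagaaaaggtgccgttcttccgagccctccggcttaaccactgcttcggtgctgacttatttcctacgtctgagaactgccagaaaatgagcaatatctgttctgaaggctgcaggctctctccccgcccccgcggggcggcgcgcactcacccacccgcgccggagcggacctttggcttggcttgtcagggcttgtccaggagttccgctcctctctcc
EPHA4: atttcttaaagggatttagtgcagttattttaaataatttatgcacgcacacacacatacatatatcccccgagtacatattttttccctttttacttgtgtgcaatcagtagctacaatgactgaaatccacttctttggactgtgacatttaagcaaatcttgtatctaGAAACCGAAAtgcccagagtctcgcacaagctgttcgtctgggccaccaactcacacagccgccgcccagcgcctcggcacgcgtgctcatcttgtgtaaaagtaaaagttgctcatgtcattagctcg
EPHA5: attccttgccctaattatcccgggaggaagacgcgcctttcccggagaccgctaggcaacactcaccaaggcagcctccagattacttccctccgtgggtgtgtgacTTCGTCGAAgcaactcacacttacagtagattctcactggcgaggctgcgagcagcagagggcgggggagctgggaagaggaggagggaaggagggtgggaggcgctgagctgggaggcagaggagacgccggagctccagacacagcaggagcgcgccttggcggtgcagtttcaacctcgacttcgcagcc
A match is no evidence of binding, and EPAS1, PTGFR, IL20RB and ANGPTL4 had no match to either motif in this window.

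PD-L1si and Cnsi libraries were also compared for these genes. Since extreme Cnsi and Cnsi IFNγ values chose the genes and enter this comparison again, the counts and directions are a description, and a share above that of all genes can come from the selection alone. Without IFNγ, PD-L1si against Cnsi was called for 35 of the 124 genes in A498 (8.54% of the 12534 genes) and for 16 in 786-O (2.79%). Under IFNγ it was called for 48 in A498 (10.5%) and 11 in 786-O (2.96%). ANGPTL4 was higher with PD-L1si in every setting, by 0.96 and 1.43 in A498 without and with IFNγ and by 0.71 and 1.30 in 786-O. SYBU was lower in every setting, by 0.80 and 0.94 in A498 and by 0.89 and 0.78 in 786-O. PLIN2 fell with PD-L1si in A498 by 1.19 without and by 0.62 with IFNγ, and SEMA3A rose there by 0.72 and 1.44. The largest fall was that of ALOX5AP under IFNγ in A498 (2.49 on the log2 scale), a gene of the leukotriene pathway at 1.88, 2.15 and 2.25 CPM in Cnsi IFNγ and 0.473, 0.519 and 0.192 CPM in PD-L1si IFNγ. The largest rise was that of the tetraspanin TSPAN2 in A498 under IFNγ (1.82). These calls were made in edgeR at the limits given above.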

How the data were processed

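Poly(A) RNA of 24 libraries, from 2 lines with 4 groups of 3, was sequenced. Per the labels and the submitters' processing notes, the authors used bcl2fastq 2.19.0, Trimmomatic 0.36.6, HISAT2 2.1.0 and featureCounts 1.6.3 on GRCh38, and deposited raw counts per gene without normalization or a filter. The absence of a filter was not tested, and 1649 genes with at least 1 CPM in A498 were listed at 0 in every 786-O library. The lines are spelled as in the labels' protocols; the sample titles hyphenate A498 and end 786-O in a digit. Groups came from the sample labels, and 0 columns lacked a sample. Names and positions were taken from GENCODE 44.

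CPM and r were computed from the counts and column totals with 0.5 CPM added. Genes whose 3 libraries of any group held 10 or more counts together were fitted with edgeR 4.0.16 (quasi-likelihood test, TMM, robust, legacy fit, R 4.3.3), over all biotypes, with Benjamini-Hochberg adjustment over all genes tested. A call needed an adjusted p under 0.05 and an absolute log2 fold change over 0.5. The IFNγ change was fitted on the 6 PD-L1si and PD-L1si IFNγ libraries of a line, the line difference on the 12 of both lines, and the siRNA change on the 12 libraries of a line. Percentages over all genes refer to the 12534 genes that met the CPM minimum of the rule. The fits were tested on simulated data in which every gene had the same spread between replicates. That setting is simpler than the real libraries, so the test checks the procedure and not its error rate here. Depth and 3 replicates set the precision given by each SE.

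The genes, lists and tests were chosen with earlier results of these data known. Genes named were CD274, the 12 per class with the largest smaller absolute r, up to 4 more per list, the genes at the threshold and the ends of ranges. Others, such as neighbours on chromosome 7 and antisense pairs, were named after their values were seen. Alternatives were relative log expression scaling, other filters, DESeq2 1.42.0, protein-coding genes only, other thresholds, the newer edgeR fit, no robust estimation, other sample sets, a replicate block, the omission of each library and, chosen after seeing the data, antisense pairs counted once. The values of 1 gene of the hypoxia list, which is counted with that list, are not reported here.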

Additional observations from a re-analysis of the deposited data

Results flagged for a closer look

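The IFNγ change in PD-L1si cells differed between the lines, in edgeR's test of the difference (786-O minus A498, adjusted p under 0.05 and a log2 difference over 0.5), for the genes given here with that difference. It was negative for IL20RB (-3.92), GADD45A (-3.25), SNAI2 (-3.21), PTGFR (-3.06), AFF3 (-2.85), ANGPTL4 (-2.42), SLC2A3 (-2.06), EGR1 (-2.02), MXI1 (-1.97), ACTA2 (-1.95), ICA1L (-1.89), SYBU (-1.74), EPAS1 (-1.73), PLIN2 (-1.53), LIPC (-1.36), AREG (-1.34) and SEMA7A (-0.94). It was positive for RASSF5 (3.57), LGI4 (3.50), ENSG00000227706 (2.94), ENSG00000261305 (2.87), SEMA3A (2.85), MMP7 (2.29), INSIG1 (2.14), CA2 (2.12) and ENSG00000280182 (1.96). It was positive also for SLITRK4 (1.92), APOBEC3B (1.82), COL8A1 (1.80), BCO1 (1.67), EDIL3 (1.67), EPHA4 (1.61), UBB (1.16), PTPN6 (1.15), EGF (1.07) and OGDHL (0.81). The difference was not called for 6 of the 124 genes, PDK4 (0.27), ALOX5AP (-0.63), TSPAN2 (0.11), FAM3C2P (1.03), BCL2L15 (0.84) and ENSG00000272482 (0.33). The selection was made on the same contrast in the Cnsi libraries, which did not enter this test. The siRNA target CD274, which was not selected, rose in both lines with a difference of -0.57 ± 0.21 (SE).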

How the results depend on the processing

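The number of genes called in the selected direction with IFNγ in PD-L1si cells was 89 in A498, 82 in 786-O and 118 for the line difference. A log2 fold change over 1 lowered the first 2 to 43 and 28. Omitting single libraries gave 88 to 93, 83 to 86 and 118 to 119. For PD-L1 siRNA without IFNγ the counts of 35 in A498 and 16 in 786-O became 64 and 40 with the adjusted p alone and 10 and 3 over a log2 change of 1, and 33 to 35 and 9 to 15 with a library omitted, the 9 without 786-O Cnsi replicate 3. Under IFNγ the 48 in A498 and 11 in 786-O became 80 and 34 with the adjusted p alone, 14 and 4 over 1, and 41 to 50 and 12 to 16 with a library omitted. These thresholds change the counts by construction, and the cause of the change without the single library was not tested. The rule itself gave 78 genes with a CPM minimum of 5, 8 with an absolute r of 1, 113 with TMM, of which 86 were among the 124, and 118 to 131 with a library omitted. TMM shifted the median r by 0.14 in A498 and 0.11 in 786-O, and no selected gene changed sign. Correlations of the deviations of libraries with the same replicate number were 0.014 to 0.049 between PD-L1si and PD-L1si IFNγ in A498 and 0.014 to 0.197 in 786-O, -0.071 to 0.063 and -0.198 to 0.1 between Cnsi and PD-L1si, and 0.041 to 0.164 and -0.011 to 0.153 between Cnsi IFNγ and PD-L1si IFNγ. In none of the 6 were all over 0.1, and at most 4 of 6 libraries correlated best with their own number, so the numbers were not taken as pairing. With the replicate block the counts were 89, 82 and 118 for IFNγ, and 35, 16, 48 and 12 for PD-L1 siRNA. With each antisense pair counted once, an alternative chosen after seeing the data, they were 82, 75 and 108 for IFNγ and 35, 16, 46 and 11 for PD-L1 siRNA.

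Of 1134 values of the named genes under alternatives, 1127 kept their side of the threshold, 5 lost and 2 gained a call, and 0 reversed. The lists and the promoters lack a replicate check of their own. Genes listed at 0 in 786-O limit the selection, and reads of overlapping opposite strands cannot be told apart.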

Other observations

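Opposite calls were also found outside the selection. In the PD-L1si libraries, 113 of the 12534 genes were called in opposite directions in the 2 lines, of which 57 were among the 124 and 56 were not. COL14A1, a fibril-associated collagen named after its values were seen, was the one with the largest smaller change among the 56, at -1.45 in A498 and 1.06 in 786-O on the log2 scale. Its r in the Cnsi libraries was -1.57 in A498 but 0.18 in 786-O, below the limit of the rule.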
